A study of Mus musculus with 25 samples.

Results

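The RNA of wild-type (WT) late 2-cell mouse embryos (L2C, 3 libraries) was compared with that of WT early 2-cell embryos (E2C, 3 libraries). These are 6 of the 25 libraries of a study of Smarca4 (Brg1), the ATPase of a chromatin remodelling complex. The knockout libraries were not used. WT MII oocytes (3 libraries) and WT PN3 zygotes (4 libraries), fertilised eggs with pronuclei, served only to show where a gene stood before the 2-cell stage. A gene was tested when 3 or more of the 6 libraries gave it an FPKM (the authors' fragment count scaled to transcript length and library total) of 1 or above. This left 10443 of 24412 gene symbols. Both groups are labelled wild type and differ by label in stage alone. Embryos were made by ICSI, the injection of sperm into MII oocytes. The oocytes came from females aged 8 to 12 weeks that were superovulated with 7 IU of PMSG and, 48 h later, 5 IU of hCG. The females of the study were B6D2F1, a hybrid cross, or C57BL/6 with Smarca4 flox/flox and Gdf9-Cre, a Cre driven in growing oocytes. Which of them gave each library, the hours after injection, the number of embryos pooled and whether replicates were collected separately are not stated in the labels. The p-values therefore cover the spread among these libraries, and that spread could be technical. Libraries were made from total RNA after removal of ribosomal RNA, so RNAs without a poly(A) tail, such as those of replication-dependent histones, were captured too.

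A mouse oocyte is transcriptionally silent and lives on stored maternal RNA. After fertilisation a first, minor wave of transcription begins in the zygote, and the transcription factor Dux and its targets, among them the Zscan4 family, come on by the early 2-cell stage. The main wave, major zygotic genome activation, follows at the late 2-cell stage, while maternal transcripts are removed.

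Letters of the type of sequence that Dux is known to bind were searched for before the gene starts. The search used the 250 bases before the gene start in RefSeq (GRCm38.p6) for the 6275 tested genes that had exactly 1 such window, on both strands, for a double homeobox type motif, TGATT and ATCA with 2 bases of any kind between them. It was found in 4 of 4 Zscan4 genes with a window, Zscan4b, Zscan4c, Zscan4d and Zscan4f, and in 6 windows in all, a share of 0.0956%. The letters AAGGTCA and CCAAT, searched too, were also in all 4 windows, beside 2.57% and 38.6% of all windows. These stretches of 90 bases are shown because Zscan4 is the best known set of genes downstream of Dux. They are printed along each gene's own strand, with 2 runs of capitals, the motif (present as its reverse complement) and the TATA box TATAAA:
Zscan4b: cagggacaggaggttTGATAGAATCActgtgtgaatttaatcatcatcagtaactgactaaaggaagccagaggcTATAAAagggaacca
Zscan4c: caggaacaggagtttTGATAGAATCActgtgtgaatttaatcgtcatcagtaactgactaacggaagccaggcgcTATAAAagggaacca
Zscan4d: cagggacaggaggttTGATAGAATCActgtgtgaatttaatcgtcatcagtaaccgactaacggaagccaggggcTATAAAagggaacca
Zscan4f: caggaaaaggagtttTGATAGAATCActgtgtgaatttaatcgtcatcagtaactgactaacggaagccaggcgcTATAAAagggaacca
They lie at chr7:10905067-10905156 (minus strand), chr7:11005616-11005705 (plus), chr7:11166199-11166288 (minus) and chr7:11397809-11397898 (plus). The motif starts 60 bases before the TATA box in all 4. Any pair of them was identical at 83 to 89 of 90 positions, so the 4 matches are not separate observations. These bases lie before the gene start, and the likeness of the transcripts was not measured. If the transcripts are as alike, reads of these copies can be shared, so single members are uncertain. The other genes with the motif were Abcb5 (log2 difference 0.57, limma adjusted p = 0.217) and Ppp2r1b, a phosphatase subunit that was lower in L2C (-1.11, adjusted p = 0.0165). A match is a description of these letters, not a site.

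Values below are FPKM rescaled between libraries, and differences are L2C minus E2C on the log2(scaled FPKM + 1) scale, which understates changes of low genes. The files give no read counts, so depth is unknown and values carry no interval for counting error. It is relative to the rest of the library, and in bulk libraries fewer cells of a type and less RNA per cell cannot be told apart. A pair of libraries stood apart. L2C replicate 3 lay between the stages: across genes its log2 values had a Pearson r of 0.737 to 0.789 with the E2C libraries, against 0.582 to 0.665 for L2C replicates 1 and 2, and it was the L2C library nearest to E2C for 72.0% of genes called higher and 73.6% of those called lower. E2C replicate 2 listed 9345 genes above 0, against 13638 to 16404 in the other 5 libraries, and 69 genes at 0 that exceeded 5 in both other E2C libraries. An exact 0 in that library may therefore be a failed estimate. The main counts and those of several lists are given with and without both.

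The change between the stages was broad and uneven. By limma at an adjusted p under 0.05, 3225 genes were higher (30.9% of genes tested) and 1805 lower (17.3%) in L2C. Together these were 48.2% of genes tested. Without L2C replicate 3 the counts were 3233 and 1910 (49.2% called), without E2C replicate 2 they were 2936 and 2037 (47.6% called), and without both they were 3310 and 2498 (55.6% called). Without L2C replicate 1 they were 2494 and 1185, and without L2C replicate 2 they were 2469 and 1092. Large changes were mostly increases: a log2 difference of at least 3 was called for 419 genes (4.01%) higher and 38 genes (0.364%) lower. E2C replicate 2 listed 1209 of the 3225 genes called higher at 0, beside 2005 of all 10443 tested. How far these zeros add to the large increases was not tested. All L2C libraries lay above all E2C libraries for 3735 genes (35.8%) and below them for 2385 (22.8%). A gene under 1 in every library of a group passed the filter only through the other group, where it is high. Genes named below for which this held include Rpl26, Folr1, Ppp2cb, Npl, Fgf4, Mrpl52, Mrps28, Ndufa12, Ehmt2 and Psmd13, through L2C. Ier2 passed through E2C. The median difference over all genes tested was 0.23. It was 0.25 without L2C replicate 3, 0.09 without E2C replicate 2 and 0.11 without both. When the test was limited to the 6925 genes that reached 1 in every one of the 6 libraries, 1713 were higher and 1643 lower, or 51.0% of calls higher against 64.1%. The median difference of these 6925 genes was -0.01.

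**Figure D1:**
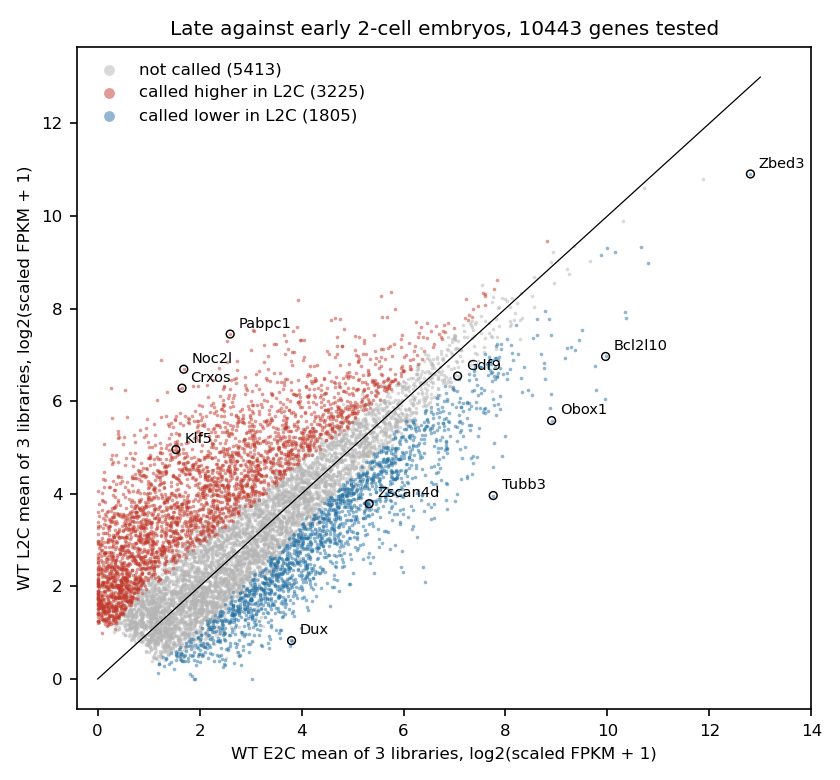
Mean level of each of 10443 genes in the 3 L2C libraries (vertical) against the 3 E2C libraries (horizontal), both as log2(scaled FPKM + 1), with genes called higher in L2C in red, lower in blue and not called in grey, and the line of equal level. The red points reach far from the line among genes that were low in E2C, while the blue points lie among genes that were high there, such as Zbed3, Bcl2l10 and Obox1.

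The earlier stages separate the genes that changed. Among genes called higher, 1105 (34.3%) had a mean below 1 in WT MII oocytes, against 16.8% of all genes tested. Among genes called lower only 28 (1.55%) were that low in the oocyte, so they had risen by E2C and were lower again in L2C. On the 2-cell lists were 10 of these 28 genes: Dux, the copies Zscan4c, Zscan4d and Zscan4f, the deubiquitinase genes Usp17la and Usp17le, and Gm2022, Gm4340, Gm8994 and Gm21312. The immediate early gene Ier2 was also among the 28, with 0.421, 0.0425 and 0.762 in the L2C libraries and 2.26, 3.67 and 1.88 in the E2C libraries (-1.36, adjusted p = 0.0126). It was named after its values were seen.

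Dux, the factor that switches on much of this programme, was low again in L2C. It stood at 0.503, 0.406 and 1.42 in the L2C libraries and at 12.3, 10.1 and 16.5 in the E2C libraries. Every L2C library was far below every E2C library, replicate 3 included. The difference was -2.99 ± 0.36 (SE, n = 3 each, limma adjusted p = 3.66e-04). In earlier stages Dux had a mean of 0.0174 in MII oocytes and 4.02 in PN3 zygotes.

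The Zscan4 genes encode zinc finger proteins of the 2-cell embryo. Of 5 members tested, 3 were lower and 0 higher, with a median of -1.78. Zscan4d (chromosome 7, 11161643 to 11166148) had 3.89, 4.21 and 30.3 in the L2C libraries and 30.6, 38.0 and 48.8 in the E2C libraries (-2.09 ± 0.63, adjusted p = 0.0230). The groups of Zscan4d only just failed to meet, because L2C replicate 3 stood beside the lowest E2C library. Zscan4c (-2.01, adjusted p = 0.0141) and Zscan4f (-1.78, adjusted p = 0.0249) likewise had L2C replicate 3 as the L2C library nearest to E2C, and in both the groups were apart. Zscan4a (-1.13, adjusted p = 0.129) and Zscan4b (-0.95, adjusted p = 0.188) overlapped between the groups. Without L2C replicate 3 all 5 were called lower, without L2C replicate 1 only 1 was, and without L2C replicate 2 or E2C replicate 3 the count was 0, with adjusted p-values of 0.0514 to 0.101 for the 3 genes. The family averaged (log2) 2.31, 2.61 and 4.56 in the L2C libraries and 4.39, 4.52 and 5.34 in the E2C libraries.

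The other transient and multicopy genes of the 2-cell stage did not move as a block. Of 53 tested, 15 were higher (28.3%) and 9 lower (17.0%), near the 30.9% and 17.3% of all genes, with a median of -0.22. Without L2C replicate 3 this became 13 higher and 21 lower, and without E2C replicate 2 as well 14 and 26. Usp17le had 0.850, 0.685 and 9.68 in the L2C libraries and 25.9, 17.9 and 27.6 in the E2C libraries (-2.92, adjusted p = 0.00549), and Tcstv1 had 3.89, 9.16 and 30.4 against 25.3, 36.2 and 41.9 (-1.58, adjusted p = 0.0466). In Tcstv1 the groups overlapped through L2C replicate 3. Zfp352, a zinc finger gene often used as a 2-cell marker, had 17.8, 16.6 and 65.9 in the L2C libraries and 21.9, 25.0 and 50.5 in the E2C libraries, and was not called (-0.16, adjusted p = 0.822). Its L2C libraries lay on both sides of the E2C range. Many of these genes have near-identical copies whose reads can be shared.

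Other members of the same list came on late. Zscan5b, a zinc finger gene, had 81.7, 93.0 and 62.4 in the L2C libraries and 2.18, 3.58 and 2.97 in the E2C libraries (4.35 ± 0.26, adjusted p = 4.44e-05). Pramel7, of the Prame-like family, had 59.9, 40.1 and 44.3 in the L2C libraries and 3.85, 0 and 1.72 in the E2C libraries (4.36, adjusted p = 3.56e-04). For both, every L2C library was far above the highest E2C library. Pramel4 (2.37), Pramel5 (2.11) and Pramel6 (3.13) were higher too, as were Tdpoz1 (2.41), Tdpoz2 (1.84) and Tdpoz4 (2.24), genes with TRAF and POZ domains. Tdpoz3 (-0.94, adjusted p = 0.311) and Tdpoz5 (0.83, adjusted p = 0.0590) were not called. Within the Usp17 copies the directions differed, since Usp17lb was higher (1.58, adjusted p = 0.00759) while Usp17la (-2.17) and Usp17le were lower. The family members in this paragraph other than Pramel7 and Zscan5b were chosen after their values were seen.

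The genes that regulate Dux were mostly higher or not called. Of 16 tested, 7 were higher (43.8%) and 2 lower (12.5%), beside 30.9% and 17.3% of all genes. Dppa2 and Dppa4, which act on the Dux promoter, were both higher, at 104, 87.0 and 63.5 in the L2C libraries and 14.7, 9.88 and 29.1 in the E2C libraries for Dppa2 (2.29, adjusted p = 0.00121). For Dppa4 the values were 102, 85.9 and 54.6 in L2C and 6.27, 8.71 and 4.29 in E2C (3.46, adjusted p = 1.27e-04). In both genes the groups were apart. The repressors moved both ways. The histone H3K9 methyltransferase Ehmt2 was higher (2.50, adjusted p = 0.00137), while Setdb1, another one (-1.51), and the chromatin assembly subunit Chaf1a (-0.69) were lower. The call of Chaf1a was lost without L2C replicate 2 or E2C replicate 1.

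The Obox homeobox genes divided into an oocyte and an embryo set. All 7 tested members were called, 3 higher and 4 lower. Obox1, Obox2, Obox5 and Obox7, which were already present in MII oocytes, were lower. Obox1 (chromosome 7, 15547257 to 15556846) had 23.4, 30.5 and 86.8 in the L2C libraries and 427, 419 and 589 in the E2C libraries (-3.54 ± 0.42, adjusted p = 3.61e-04), beside a mean of 293 in MII oocytes. All 4 kept the groups apart. The related Crxos had 126, 55.0 and 49.7 in the L2C libraries and 1.87, 0 and 4.57 in the E2C libraries (4.82 ± 0.60, adjusted p = 4.33e-04). Obox6 had 113, 75.2 and 50.5 against 6.46, 4.20 and 2.98 (3.83, adjusted p = 1.28e-04), and Obox3 had 28.4, 31.5 and 77.3 against 6.67, 1.04 and 10.8 (2.88, adjusted p = 0.00533). Obox3 was the exception in that L2C replicate 3, which lay nearest to E2C for most genes, had the highest value. Reads of Obox copies can be shared.

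**Figure D2:**
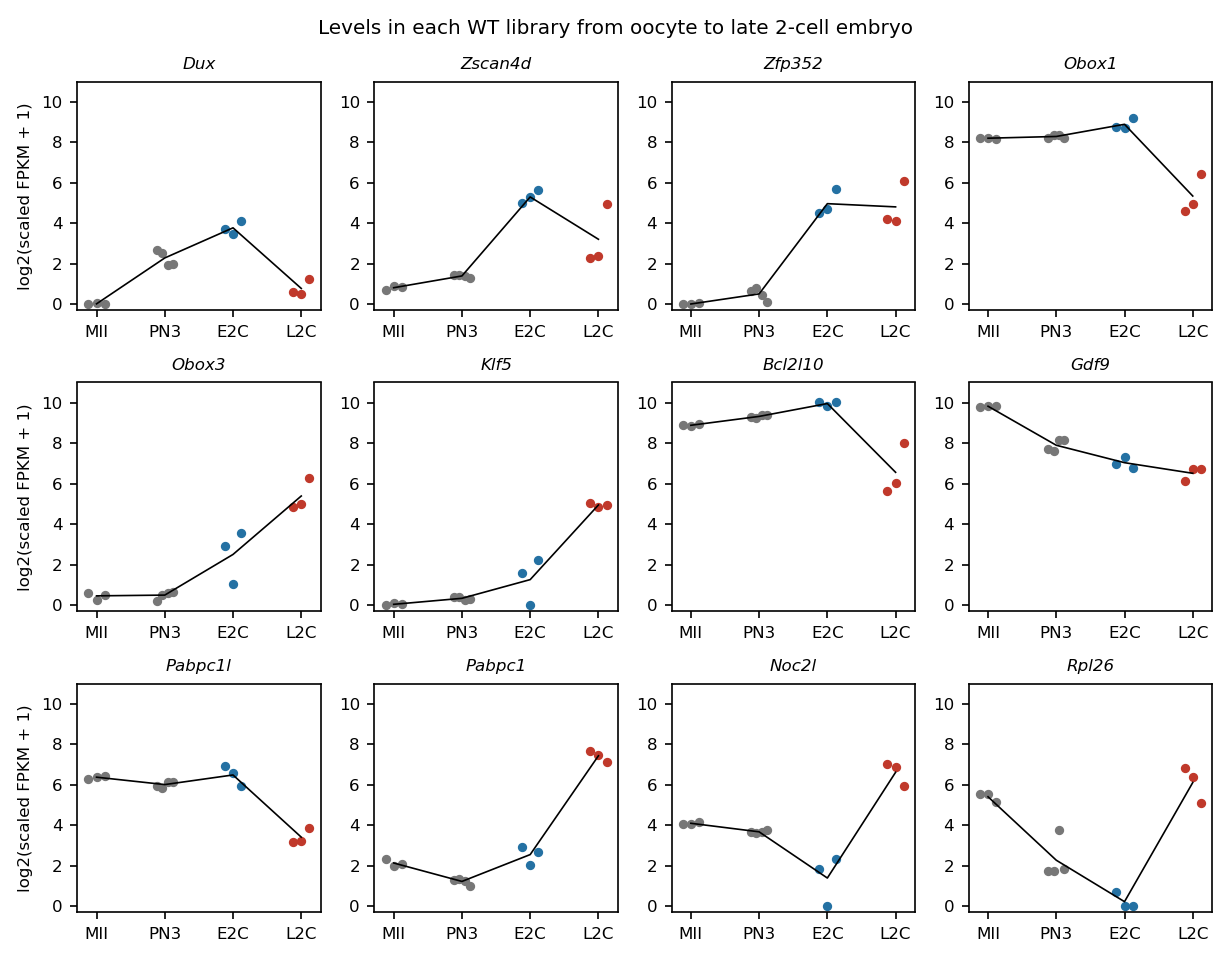
Level of 12 genes, as log2(scaled FPKM + 1), in each WT library of MII oocytes, PN3 zygotes, E2C and L2C embryos, with a line through the stage means. Dux and Zscan4d peak at E2C, Klf5, Obox3 and Pabpc1 are highest at L2C, Bcl2l10, Obox1 and Pabpc1l are lower at L2C than at any earlier stage, and Noc2l and Rpl26 are low at E2C and high at L2C.

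Of 34 transcription factors named in zygotic activation and preimplantation development, 18 were higher (52.9%) and 3 lower (8.82%). Over all genes the shares were 30.9% and 17.3%. The median was 0.80, beside 0.23 over all genes. Without E2C replicate 2, 12 were higher and 3 lower, and 28.1% of all genes were then higher. Leaving out single libraries gave 12 to 17 higher. Gabpa, an ETS family factor, had 45.3, 37.9 and 48.9 in the L2C libraries and 1.95, 1.45 and 3.19 in the E2C libraries (3.85 ± 0.28, adjusted p = 7.88e-05). Klf5, a Krüppel-like factor of early lineages, had 31.9, 28.1 and 30.1 in the L2C libraries and 1.97, 0 and 3.71 in the E2C libraries (3.68 ± 0.51, adjusted p = 6.63e-04). For both genes the 3 L2C libraries lay close together, replicate 3 included, and far above E2C. Rarg, a retinoic acid receptor (3.52), and Tead4, the Hippo pathway's DNA-binding partner (3.15), were also higher, both low in E2C. The orphan nuclear receptor Nr5a2 was higher by 1.32, with 39.5, 32.3 and 25.2 in the L2C libraries and 15.9, 9.74 and 11.5 in the E2C libraries (adjusted p = 0.00387). Yy1, a zinc finger factor chosen after its values were seen, was higher by 2.81.

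Other factors of the list fell or were not called. The oocyte TATA-binding paralog Tbpl2 (-1.36), the Myc partner Max (-0.89) and Klf17 were lower, the last with 108, 121 and 133 in the L2C libraries and 196, 213 and 260 in the E2C libraries (-0.88, adjusted p = 0.00472). Tfap2c was not called (33.3, 35.5 and 17.1 in the L2C libraries and 17.6, 11.5 and 19.4 in the E2C libraries, adjusted p = 0.0865), with L2C replicate 3 inside the E2C range. The ubiquitous factors Nfya (0.15), Nrf1 (0.26) and Ctcf (0.41) were not called either. Myc was higher (1.38, adjusted p = 0.0300) at a low level, 3.93, 3.94 and 1.09 in the L2C libraries and 0.980, 0 and 0.458 in the E2C libraries. The calls of both Myc and Tbpl2 were lost without L2C replicate 1, L2C replicate 2 or E2C replicate 3, and that of Myc also without E2C replicate 2 (adjusted p of 0.0640 to 0.118).

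Genes of the transcription and RNA processing machinery are read here beside the shares over all genes, 30.9% higher and 17.3% lower. Of 53 genes of RNA polymerase II and its general factors, 31 were higher (58.5%) and 5 lower (median 1.09), and of 32 Mediator genes 13 were higher (40.6%) and 4 lower (median 0.47). Leaving out single libraries gave 9 to 13 Mediator genes higher and 2 to 5 lower, with 10 and 5 without E2C replicate 2. The polymerase subunit Polr2h had 34.6, 21.4 and 12.4 in the L2C libraries and 2.77, 0 and 1.77 in the E2C libraries (3.33, adjusted p = 0.00134). Against the trend, the initiation factor Gtf2b had 10.7, 17.6 and 24.4 in the L2C libraries and 107, 82.7 and 106 in the E2C libraries (-2.49, adjusted p = 3.39e-04). Mediator subunits likewise moved both ways: Med29 had 44.5, 50.8 and 41.3 in the L2C libraries and 2.17, 2.08 and 3.02 in the E2C libraries (3.77, adjusted p = 5.37e-05). Med30 had 7.90, 10.8 and 38.1 in the L2C libraries and 110, 187 and 118 in the E2C libraries (-3.08, adjusted p = 0.00128). In each of these 4 genes the groups were apart. Med30 was present in MII oocytes at a mean of 52.4, whereas Med29 was at 1.65. Of 60 spliceosome and SR protein genes, 29 were higher (48.3%) and 8 lower (median 0.71), led by Snrnp35 (4.62) and Snrpd2 (3.83), while Snrnp27 (-2.23) and Lsm3 (-2.04) were lower.

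Ribosomal protein genes rose almost without exception. Of 79 cytosolic ribosomal protein genes 75 were higher and 0 lower, with a median of 2.64. Rps26 had 338, 295 and 239 in the L2C libraries and 8.54, 15.4 and 18.7 in the E2C libraries (4.31 ± 0.28, adjusted p = 5.37e-05). Its lowest L2C library was far above its highest E2C library. Rpl26 had 114, 82.2 and 33.5 in the L2C libraries, against 0.614 and listings at 0 in the E2C libraries, so the size of its difference rests on the value added before the logarithm. The 4 genes not called were Rpl15 (0.40), Rpl17 (0.54), Rpl32 (0.54) and Rps15a (-0.40). Rpl3, at 31.6, 8.76 and 14.9 in the L2C libraries and 6.49, 5.06 and 6.33 in the E2C libraries, rose by less (1.31, adjusted p = 0.0277), and its call was lost without L2C replicate 1 or without any one of the E2C libraries. Leaving out single libraries gave 70 to 75 higher and 0 lower. Without L2C replicate 3 and E2C replicate 2 together the count was 76 higher and 0 lower. Ribosomal protein genes have many processed pseudogenes, and how reads shared with them were counted is not stated.

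The list's level had not been low throughout. The mean log2 level of the 79 genes was 5.03 to 5.10 in the MII libraries, 3.80 to 4.17 in the PN3 libraries, 3.12 to 3.63 in the E2C libraries and 5.70 to 6.55 in the L2C libraries. E2C thus held the lowest level of the 4 stages and L2C the highest, with no overlap between the stages' libraries.

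The genes that make ribosomal RNA and assemble ribosomes moved with them. Of 112 nucleolar ribosome biogenesis genes, 90 were higher (80.4%) and 2 lower (1.79%), with a median of 1.96. Of 31 genes of RNA polymerases I and III, 22 were higher (71.0%) and 0 lower (median 1.85). Over all genes the shares were 30.9% and 17.3%. Leaving out single libraries gave 82 to 95 and 20 to 25 higher. Without L2C replicate 3 and E2C replicate 2 together the counts were 97 higher and 2 lower, and 27 higher and 1 lower. Noc2l, a nucleolar protein of large subunit assembly, had 128, 118 and 60.3 in the L2C libraries and 2.63, 0 and 4.04 in the E2C libraries (5.22 ± 0.57, adjusted p = 2.47e-04). Ubtf, the upstream binding factor of ribosomal RNA genes, had 60.3, 51.3 and 33.2 in the L2C libraries and 2.75, 2.08 and 2.50 in the E2C libraries (3.80 ± 0.29, adjusted p = 8.08e-05). In both genes L2C replicate 3 was the lowest of the L2C libraries and still well above E2C. The methyltransferase of ribosomal RNA Fbl (3.77), named after its values were seen, and Mybbp1a (4.96) were higher as well. The 2 lower genes were the kinase Riok1, at 12.6, 16.8 and 32.5 in the L2C libraries and 139, 172 and 175 in the E2C libraries (-3.01, adjusted p = 2.08e-04), and Rsl1d1 (-0.68), whose call was lost without L2C replicate 2. The nucleolar chaperones parted: Ncl was higher (1.01, adjusted p = 0.00306), while Npm1, at 429, 333 and 360 in the L2C libraries and 494, 491 and 491 in the E2C libraries, was not called (-0.40, adjusted p = 0.0792).

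The ETS core CCGGAAG, the type of sequence bound by Gabpa, was found in the 250-base windows of 30.0% of ribosomal protein genes with a window (15 of 50), 33.3% of ribosome biogenesis genes (28 of 84), 32.4% of proteasome genes (12 of 37) and 27.3% of RNA polymerase I and III genes (6 of 22). The share was 16.1% over all tested genes with a window and 0% of 31 oocyte genes. It was 17.9% of nuclear-encoded respiratory chain genes (10 of 56) and 8.70% of 2-cell multicopy genes (2 of 23). Several other motifs were searched in the same windows. Among genes called higher the share with CCGGAAG was 18.6%, and among genes called lower 14.8%. The Zscan4 and Obox windows held none. To show the motif in place, 3 ribosomal protein promoters are printed up to the base before the gene start (RefSeq, GRCm38.p6), with the match on the gene's own strand in capitals:
Rpl38: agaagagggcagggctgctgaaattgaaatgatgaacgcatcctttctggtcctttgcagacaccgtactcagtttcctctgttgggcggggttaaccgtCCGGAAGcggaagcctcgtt
Rps18: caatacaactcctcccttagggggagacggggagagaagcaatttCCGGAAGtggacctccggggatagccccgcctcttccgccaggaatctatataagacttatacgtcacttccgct
Rps25: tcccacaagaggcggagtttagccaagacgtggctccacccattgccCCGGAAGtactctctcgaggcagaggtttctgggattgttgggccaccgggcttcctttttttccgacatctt
They lie at chr11:114668460-114668579 (plus strand), chr17:33955666-33955785 (minus) and chr9:44407594-44407713 (plus). The motif also matches within other ETS sequences, and no match says only that these letters are not in the window. The windows of the gene groups differed in composition too, with a median observed over expected CpG of 0.848 for ribosomal protein genes, 0.767 for all tested genes, 0.183 for oocyte genes and 0.0882 for the 2-cell multicopy genes.

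**Figure D3:**
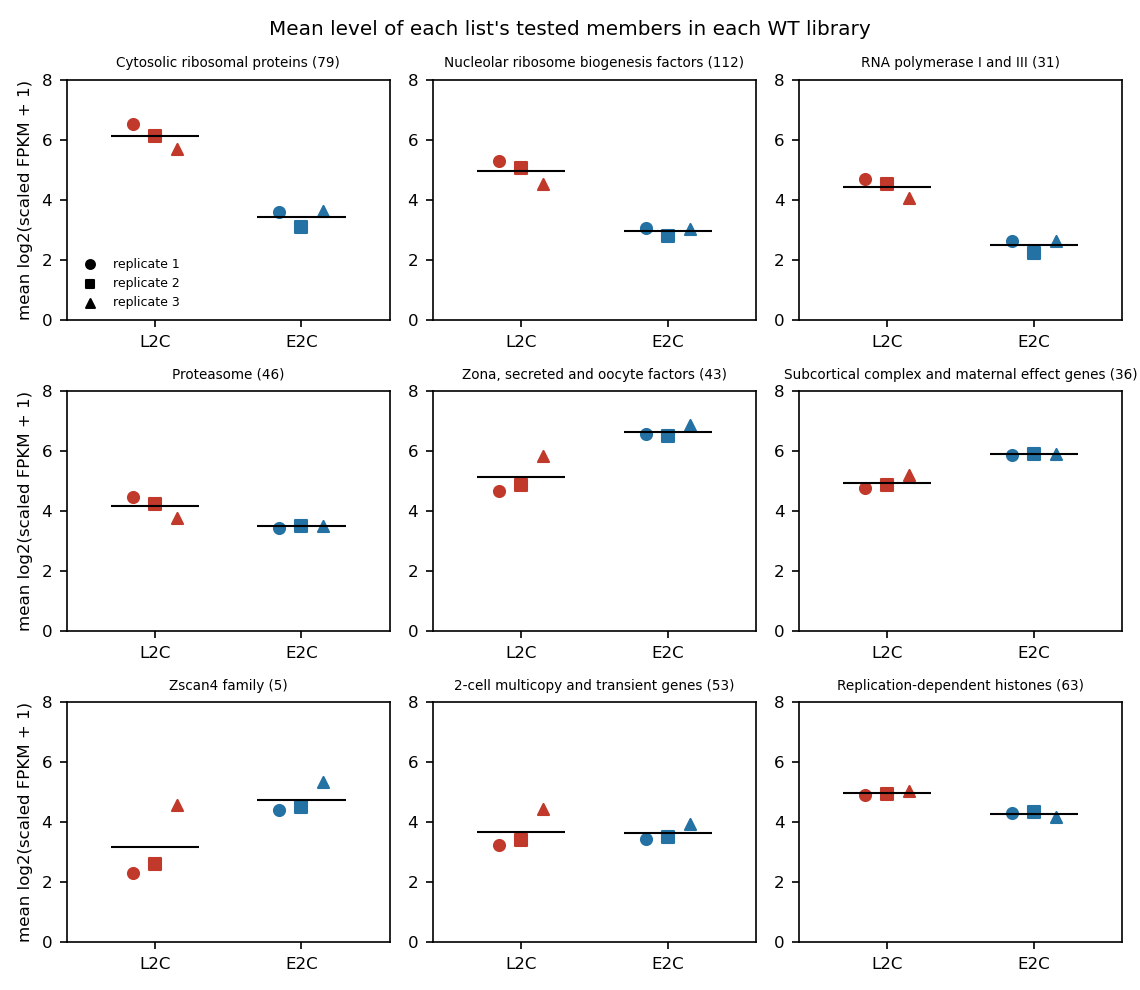
Mean log2(scaled FPKM + 1) of the tested members of 9 gene lists in each L2C library (red, left) and each E2C library (blue, right), with replicates 1 to 3 as circle, square and triangle and the group mean as a bar; the number of members is in each title. Ribosomal protein, ribosome biogenesis and polymerase I and III genes keep the groups apart in every library, while L2C replicate 3 lies nearest to E2C for these, the oocyte and the Zscan4 lists.

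Translation, folding and transport genes rose in part. Of 52 translation initiation and elongation factors, 31 were higher (59.6%) and 8 lower (15.4%), with a median of 1.14. The initiation factor 3 subunit Eif3c had 242, 188 and 119 in the L2C libraries and 14.6, 14.1 and 10.9 in the E2C libraries (3.65, adjusted p = 8.08e-05), and Eif3a rose by 3.28. The oocyte cap-binding protein Eif4e1b fell, with 72.4, 122 and 191 in the L2C libraries and 441, 390 and 407 in the E2C libraries (-1.78, adjusted p = 0.00189). Of 14 TRiC chaperonin and prefoldin genes 8 were higher (57.1%) and 1 lower (7.14%), Pfdn4 (-3.04). Without L2C replicate 1 or L2C replicate 2, 5 of the 14 were higher. Of 29 nuclear import and export genes 17 were higher (58.6%) and 3 lower (10.3%). The lower count was 5 without L2C replicate 3, and 1 without L2C replicate 1, L2C replicate 2, E2C replicate 1 or E2C replicate 3. The import receptors Tnpo3 (4.40) and Ipo7 (3.81) were among the higher genes. Heat shock and cochaperone genes had 13 of 30 higher (43.3%) and 3 lower (10.0%), beside 30.9% and 17.3% of all genes. These counts became 14 and 6 without L2C replicate 3 and 9 and 5 without E2C replicate 2. The constitutive chaperone Hspa8 had 131, 123 and 132 in the L2C libraries and 16.9, 25.7 and 32.5 in the E2C libraries (2.36, adjusted p = 2.03e-04).

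Mitochondrial and proteasome genes were higher in shares nearer to the 30.9% of all genes. Of 72 mitochondrial ribosomal protein genes 29 were higher (40.3%) and 10 lower (13.9%, beside 17.3% of all genes). For 77 nuclear-encoded respiratory chain genes the counts were 29 (37.7%) and 7 (9.09%), and for 46 proteasome genes 19 (41.3%) and 9 (19.6%). The complex I subunit Ndufb10 had 25.9, 18.1 and 13.5 in the L2C libraries and 0, 0 and 1.78 in the E2C libraries (3.80, adjusted p = 4.15e-04). Mrpl52, Mrps28 and Ndufa12 were listed at 0 in all 3 E2C libraries and were called higher, Mrpl52 at 10.5, 14.3 and 3.79 in the L2C libraries. All 3 had means of 6.51 to 9.30 in MII oocytes. The proteasome subunit Psmb4 rose (3.73), as did Psmd13 (3.27), while the assembly chaperone Psmg1 (-1.93, not called without L2C replicate 1) and Psmd10 (-1.82) fell. Psmc3ip (3.57) is on that list by its name but is known as a recombination factor.

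Enzymes of nucleotide synthesis were more often higher than lower. Of 27 purine and pyrimidine synthesis genes 15 were higher (55.6%) and 3 lower (11.1%), beside 30.9% and 17.3% of all genes. Leaving out single libraries gave 11 to 15 higher, with 12 without E2C replicate 2. Prps1, which makes the ribose phosphate donor of nucleotides, had 191, 165 and 158 in the L2C libraries and 8.95, 11.5 and 14.2 in the E2C libraries (3.80 ± 0.22, adjusted p = 4.44e-05). Impdh1 (4.36) and Ppat (4.11), enzymes of purine synthesis, were higher too, while Adss (-1.53), also of purine synthesis, was lower. Of 23 glycolysis genes, with a median of 0.07, 5 were higher (21.7%) and 6 lower (26.1%), beside 30.9% and 17.3% of all genes. The pyruvate carrier subunit Mpc2 rose (3.38), and the oocyte lactate dehydrogenase Ldhb fell, with 93.3, 117 and 216 in the L2C libraries and 550, 758 and 551 in the E2C libraries (-2.19, adjusted p = 6.69e-04). Of 26 serine, one-carbon and stress response genes 14 were higher (53.8%) and 5 lower (19.2%), with Psat1, of serine synthesis (3.64), and the stress-inducible Sesn2 (4.18) higher. Of 20 cholesterol synthesis genes 9 were higher (45.0%) and 4 lower (20.0%). Directions differed within the pathway: Sqle rose (1.98) and Hmgcs1 fell (-1.49).

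**Figure D4:**
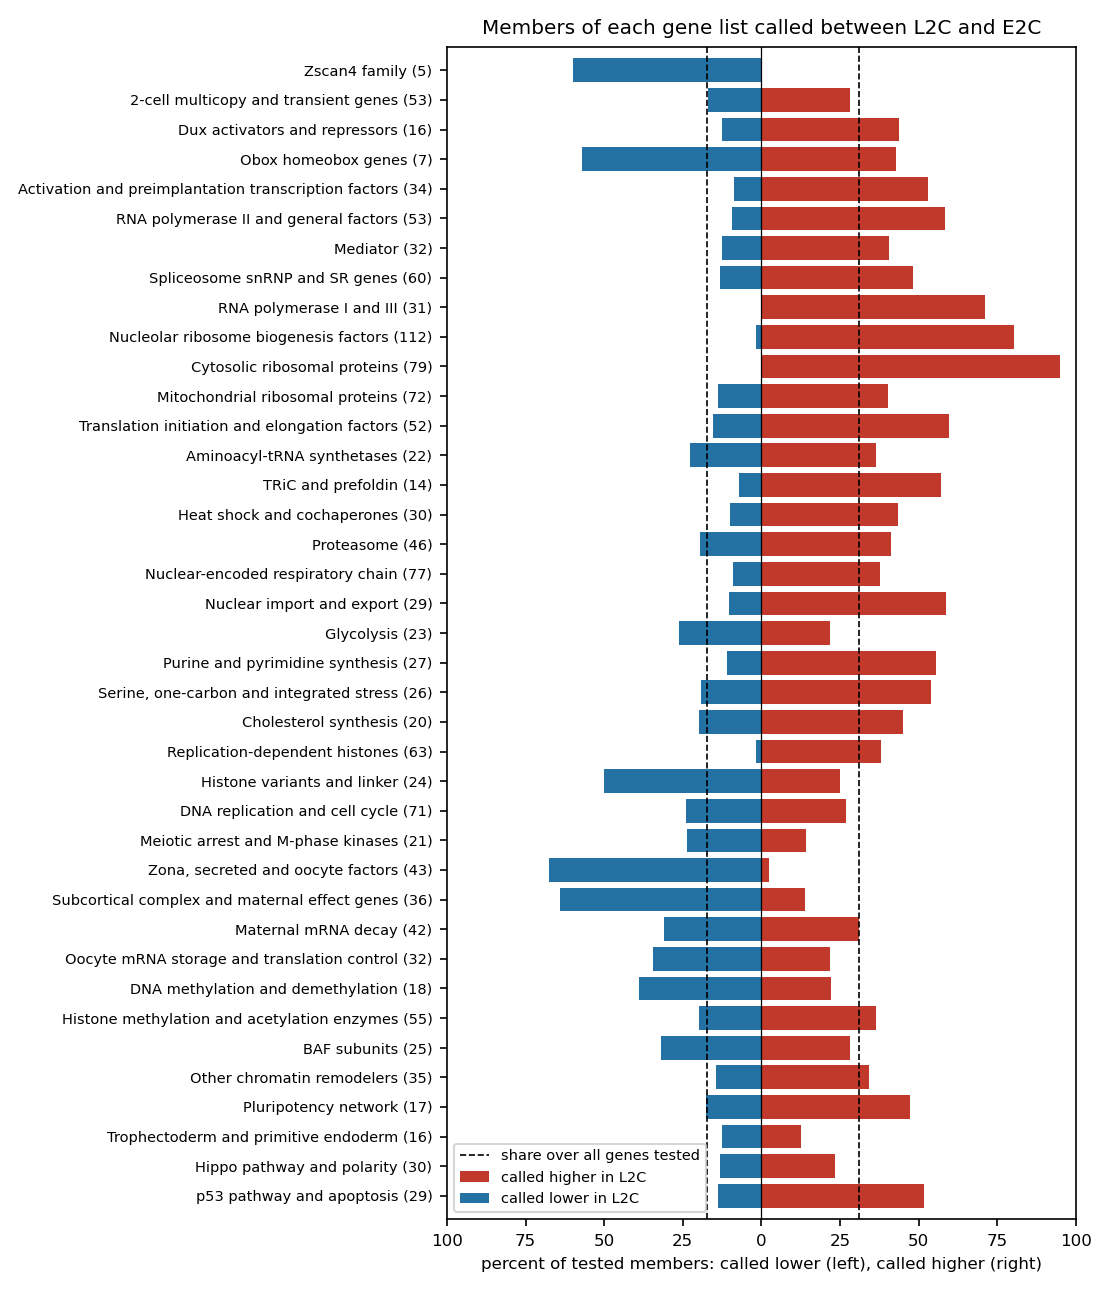
Share of the tested members (their number is in brackets) of 39 gene lists that was called higher in L2C (red, right) and lower in L2C (blue, left), with dashed lines at the shares over all genes tested, 30.9% and 17.3%. Ribosomal protein, ribosome biogenesis and RNA polymerase I and III genes reach furthest to the right, and the oocyte, maternal effect, Zscan4 and Obox lists furthest to the left.

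Oocyte transcripts were mostly lower. Of 43 zona, secreted and other oocyte genes 29 were lower (67.4%) and 1 higher (2.33%), with a median of -1.62. Of 36 subcortical complex and maternal effect genes 23 were lower (63.9%) and 5 higher (13.9%), with a median of -1.16. Over all genes 17.3% were lower and 30.9% higher. Leaving out single libraries gave 22 to 34 lower on the first list and 21 to 23 on the second, with 34 and 23 without L2C replicate 3. Without E2C replicate 2 as well they were 35 and 24. The first list kept 1 higher in each of these. Bcl2l10, an oocyte BCL2 family member, had 48.9, 64.9 and 258 in the L2C libraries and 1038, 903 and 1053 in the E2C libraries (-3.39 ± 0.51, adjusted p = 9.80e-04). Rfpl4, a RING finger protein of oocytes, had 52.3, 63.5 and 206 against 784, 793 and 1027 (-3.27, adjusted p = 6.26e-04). Both were apart between the groups, with L2C replicate 3 several times above the other L2C libraries. Nlrp4b (-3.09), Nlrp9b (-3.02) and Nlrp4a (-2.73), genes of the NLRP family expressed in oocytes, also fell. The highest gene of the E2C libraries by mean, Zbed3, which encodes a member of the subcortical maternal complex and was named after its values were seen, had 1181, 1519 and 3061 in the L2C libraries and 7071, 7794 and 6613 in the E2C libraries (-2.02, adjusted p = 0.00126).

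Not every oocyte gene fell between these stages. The zona protein gene Zp3 had 20.4, 14.8 and 15.2 in the L2C libraries and 11.5, 14.9 and 14.5 in the E2C libraries and was not called (0.28, adjusted p = 0.377). The oocyte growth factor Gdf9 had 68.8, 104 and 105 against 125, 162 and 111, with the groups apart but not called (-0.52, adjusted p = 0.0897). The meiotic kinase Mos was also not called (0.26, adjusted p = 0.593). In MII oocytes the means of these genes were 139 for Zp3, 909 for Gdf9 and 98.9 for Mos, far above E2C, whereas Bcl2l10 (473) and Rfpl4 (292) had been lower in the oocyte than at E2C. The 5 higher genes of the maternal effect list were Ago2 (2.26), Trim28 (1.82), Basp1 (1.66), Smarca4 (1.24) and Hsf1 (0.63). Smarca4 itself had 81.4, 65.9 and 44.1 in the L2C libraries and 29.4, 32.2 and 17.7 in the E2C libraries (adjusted p = 0.00856).

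Of 42 mRNA decay genes 13 were higher (31.0%, beside 30.9% of all genes) and 13 lower (31.0%, beside 17.3%), with a median of -0.13. Btg4, which brings the deadenylase to maternal RNA, had 412, 489 and 1034 in the L2C libraries and 1547, 1543 and 1755 in the E2C libraries (-1.44 ± 0.32, adjusted p = 0.00549). The adaptor Pabpn1l (-2.11), which binds poly(A) with it, and the deadenylase subunits Cnot11 (-1.76), Cnot6l (-1.27) and Cnot7 (-0.92) were lower. The CNOT scaffold Cnot1 (1.16), the deadenylase Cnot8 (1.20), the exosome nuclease Dis3 (2.71) and Ythdf2 (2.06), a reader of methylated adenine in RNA, were higher. Cnot1, Cnot6l, Cnot7 and Cnot8 were chosen after their values were seen. Of 32 genes of oocyte RNA storage and translation control 7 were higher (21.9%) and 11 lower (34.4%), with Dazl (-2.71) lower and Larp1 (3.80) higher.

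Some pairs of related genes changed order. These pairs were chosen after their values were seen. Among poly(A) binding proteins, the oocyte form Pabpc1l had 7.96, 8.29 and 13.6 in the L2C libraries and 119, 95.8 and 61.0 in the E2C libraries (-3.07 ± 0.30, adjusted p = 1.72e-04). The general form Pabpc1 had 204, 178 and 139 in the L2C libraries and 6.52, 3.14 and 5.52 in the E2C libraries (4.88 ± 0.27, adjusted p = 4.44e-05). Pabpc1 was thus the higher of the pair in every L2C library and the lower in every E2C library. The same crossing of FPKM levels in all 6 libraries was seen for the importins Kpna7 (-2.91) and Kpna1 (2.85), the tubulins Tubb3 (-3.92) and Tubb5 (1.07), and Smarca2 (-1.05) and Smarca4 (1.24), the alternative ATPases of the remodelling complex. The kinases Aurkc (-2.88) and Aurkb (1.91) crossed by their means, but Aurkc stayed the higher in L2C replicate 3. Eif4e1b stayed above Eif4e2 in every library although Eif4e2 rose (2.22). The general forms Tbp (0.71, adjusted p = 0.133) and Ldha (0.52, adjusted p = 0.325) were not called while Tbpl2 and Ldhb fell.

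**Figure D5:**
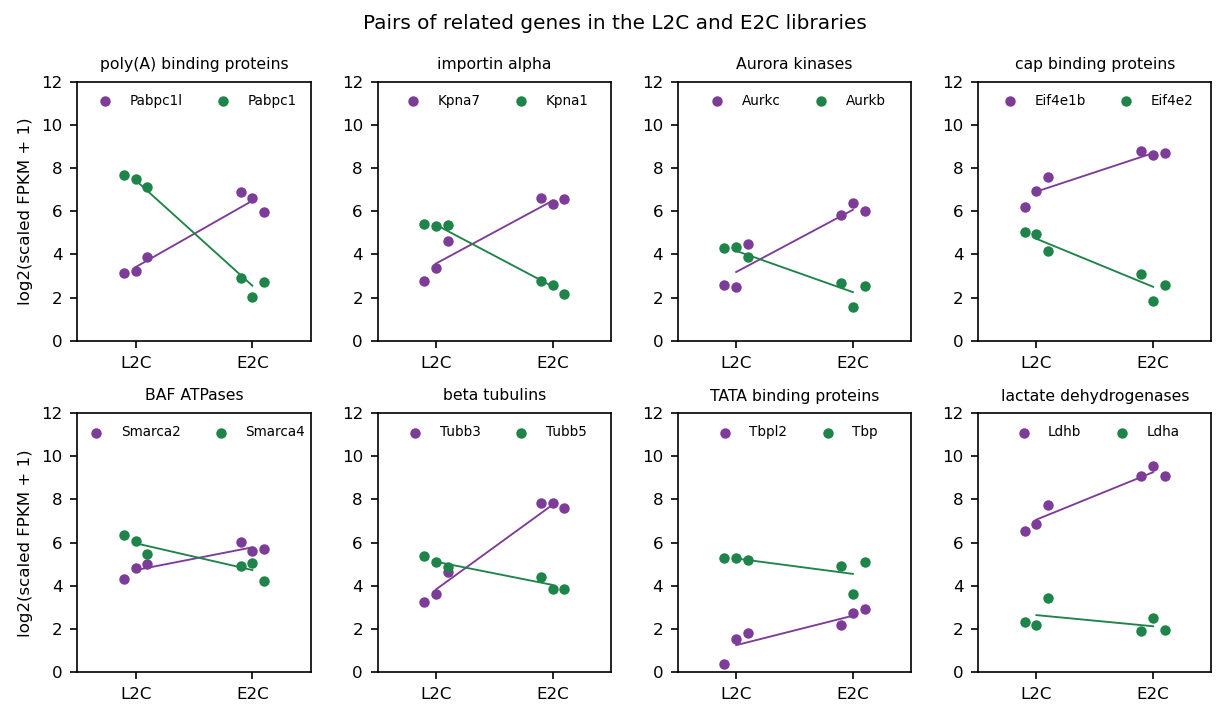
Level of 8 pairs of related genes, as log2(scaled FPKM + 1), in each L2C library (left) and E2C library (right), with the oocyte form or the member lower in L2C in purple, the other member in green, and lines through the group means. The lines cross for Pabpc1l and Pabpc1, Kpna7 and Kpna1, Aurkc and Aurkb, Smarca2 and Smarca4, and Tubb3 and Tubb5.

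Chromatin genes changed in both directions. Of 63 replication-dependent histone genes (median 0.55) 24 were higher (38.1%, beside 30.9% of all genes) and 1 lower (1.59%, beside 17.3%). The higher count was 17 without L2C replicate 3, 12 without E2C replicate 3 and 11 without L2C replicate 2. Hist1h3i had 22.5, 29.0 and 16.6 in the L2C libraries and 3.20, 0 and 3.79 in the E2C libraries (3.09, adjusted p = 0.00237), and the lower gene was Hist1h2aa (-1.01), a variant known from testis and oocytes. Histone copies share reads and are uncertain. Of 24 histone variant and linker genes 12 were lower (50.0%) and 6 higher (25.0%). These counts were 7 lower and 5 higher without L2C replicate 2, and 8 lower and 4 higher without E2C replicate 1. The oocyte linker histone H1foo had 15.2, 20.7 and 44.6 in the L2C libraries and 106, 112 and 109 in the E2C libraries (-2.13, adjusted p = 0.00128), and H2afz rose (2.82). Slbp, which binds the histone RNA stem loop, fell by 2.08.

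Among histone-modifying enzymes 20 of 55 were higher (36.4%) and 11 lower (20.0%), shares near those of all genes. The H3K4 demethylase Kdm5b had 119, 105 and 81.0 in the L2C libraries and 5.57, 7.34 and 3.95 in the E2C libraries (3.97 ± 0.26, adjusted p = 5.53e-05). Kdm4c, an H3K9 demethylase (3.44), and the arginine methyltransferase Prmt1 (3.23) rose, and Ezh2, the polycomb methyltransferase, fell (-1.38). Among 35 other remodellers 12 were higher (34.3%) and 5 lower (14.3%), also near the shares of all genes, and the NuRD subunit Mta2 had 125, 125 and 90.4 in the L2C libraries and 4.49, 5.47 and 4.34 in the E2C libraries (4.30 ± 0.23, adjusted p = 4.44e-05). The related Mta3 (-1.42) and the shared subunit Rbbp7 (-2.24) were lower. The 25 BAF subunits had 7 higher and 8 lower, with Smarcc1 (2.71) and Dpf2 (2.37) higher and Dpf3 (-1.67) and Ss18l1 (-1.37) lower. Of 18 DNA methylation genes 7 were lower (38.9%) and 4 higher (22.2%). Zfp57, which protects imprints, had 146, 218 and 364 in the L2C libraries and 1223, 1180 and 1486 in the E2C libraries (-2.50, adjusted p = 3.92e-04), the dioxygenase Tet3 fell (-1.48) and its relative Tet1 rose (2.71).

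Cell cycle and replication genes were called in both directions, with 19 higher (26.8%) and 17 lower (23.9%) of 71. Over all genes the shares were 30.9% and 17.3%. Ccne1, cyclin E1, had 183, 142 and 124 in the L2C libraries and 11.6, 8.74 and 9.78 in the E2C libraries (3.76 ± 0.22, adjusted p = 4.44e-05), more than 10 times apart in every library. The phosphatases parted, with Cdc25c higher (3.01) and Cdc25b lower (-1.70), and the spindle kinase Ttk was lower (-2.36). Of 21 genes of meiotic arrest and M-phase kinases 3 were higher (14.3%) and 5 lower (23.8%).

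Genes of later lineages changed in both directions or did not pass the filter. Of 26 pluripotency genes listed, 17 passed the filter on low values. Of these 8 were higher (47.1%) and 3 lower (17.6%), beside 30.9% and 17.3% of all genes. Without L2C replicate 1 or E2C replicate 3 the counts were 5 higher and 3 lower. Pou5f1 fell, with 71.7, 93.7 and 150 in the L2C libraries and 204, 268 and 187 in the E2C libraries (-1.10, adjusted p = 0.0106). Fgf4, a growth factor of the inner cell mass, had 6.01, 5.34 and 4.05 in the L2C libraries, against 0.0333 in 1 E2C library and listings at 0 in the others, and was called higher (adjusted p = 3.91e-04). Sox2 was not called (-0.05), and Nanog and Cdx2 did not pass the filter, with no value above 0.298 in any of the 6 libraries. Of 34 trophectoderm and primitive endoderm genes 16 were tested, with 2 higher (12.5%) and 2 lower (12.5%). The lower count was 5 without L2C replicate 3 or E2C replicate 2, 7 without both, and 0 without any one of the other libraries. Gata4 had 60.9, 70.9 and 40.5 in the L2C libraries and 7.83, 8.10 and 9.03 in the E2C libraries (2.61, adjusted p = 1.69e-04), while Gata3 was not called (-0.87, adjusted p = 0.0744). Of 30 Hippo pathway and polarity genes 7 were higher (23.3%) and 4 lower (13.3%). The lower count was 1 without L2C replicate 2, and 2 without L2C replicate 1, E2C replicate 1 or E2C replicate 2.

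Genes of the p53 pathway and apoptosis had 15 of 29 members higher (51.7%) and 4 lower (13.8%), beside 30.9% and 17.3% of all genes. Their median was 1.17, and 7 were lower without E2C replicate 2. The BCL2 family member Mcl1, which protects cells, had 63.6, 63.6 and 41.7 in the L2C libraries and 4.18, 7.63 and 6.63 in the E2C libraries (3.01, adjusted p = 1.53e-04). Death-promoting Bax (1.49) and Bid (2.53), named after their values were seen, rose as well, and Casp8 fell (-2.35). Cdkn1a, a cell cycle inhibitor induced by p53, was higher by 1.67 (adjusted p = 0.0336), with its L2C libraries all above E2C, but the call was lost when any one library other than E2C replicate 3 was left out. Trp53 itself (-0.14, adjusted p = 0.732) was not called.

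Large single changes lay partly outside these lists. Vimp, a selenoprotein of the endoplasmic reticulum, had 128, 127 and 99.7 in the L2C libraries and 0.880, 0 and 3.25 in the E2C libraries (5.89 ± 0.46, adjusted p = 8.18e-05). The small GTPase Rab20 (5.78), the folate receptor Folr1 (5.36), the phosphatase catalytic subunit Ppp2cb (5.12), Npl (5.00), the metallothionein Mt2 (5.00), the tetraspanin Cd63 (5.00) and the RNA-binding protein Syncrip (4.89) followed. All of these had means under 1 in MII oocytes, and all but Syncrip were listed at 0 in E2C replicate 2. Folr1, Ppp2cb and Npl were also under 1 in every E2C library and passed the filter through L2C alone. The sizes of their differences rest on the value added before the logarithm. Among genes with ordinary symbols, groups apart and a mean of at least 10 in the higher group, the largest falls were those of Rgs2, a G protein regulator, with 0.538, 1.63 and 7.63 in the L2C libraries and 66.9, 79.3 and 106 in the E2C libraries (-4.68 ± 0.55, adjusted p = 3.51e-04), of the retinoic acid binding protein Crabp2 (-4.01), of Tubb3, Ifit1bl2 (-3.88) and AU022751 (-3.69). Fam90a1a was also among them, with 2.18, 0.945 and 8.74 in the L2C libraries and 46.5, 75.4 and 66.1 in the E2C libraries. Speer5-ps1 (-3.43) and the DNA repair proteins Hmces (-3.31) and Neil3 (-3.30) came next, all present in MII oocytes.

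The share of genes called differed with gene length. Among tested genes with a RefSeq entry (94.7%), the median span was 17511 bp for genes called higher, 28529 bp for genes called lower and 24068 bp for all. The share called higher was 39.5%, 35.1%, 30.5% and 18.1% in 4 bins of spans from the shortest to the longest, and the share called lower 13.3%, 16.9%, 18.6% and 20.6%. The part of gene length in these counts was not tested.

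The labelled stages were checked against markers. The oocyte and embryo genes Nlrp5, Ooep and Dppa3 were present in all 6 libraries, Dppa3 at 443 to 787 in L2C and 1082 to 1204 in E2C. Tmem92 (-0.37) and Tcstv3 (0.52), other markers of the 2-cell stage, were not called. Of 24 cumulus and granulosa markers 20 were under 1 in all 6 libraries and 6 were at 0 in all, Cyp11a1 and Lhcgr among them. Their summed FPKM was 8.79 to 18.7 in the L2C libraries and 1.20 to 7.48 in the E2C libraries, and the gene behind the higher sum was Amhr2, at 15.9, 9.70 and 5.71 in L2C. Only 2 of these markers were tested, and 1 was called higher and 1 lower. Sperm and testis markers summed to 68.2 to 108 in L2C and 86.2 to 116 in E2C, with 18 of 24 under 1 in all libraries. Blood and immune markers summed to 2.77 to 4.54 in L2C and 0.0132 to 3.67 in E2C. The part of other cells in the results was not tested.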

How the data were processed

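The authors deposited FPKM, with a single value for each gene symbol in each library. HISAT2, StringTie, HTSeq, Trim Galore 0.4.5 and the names mm10 and GRCm38 appear in the submitters' processing notes without a role. Whether strand was used in counting is not stated. Reads were paired, of 150 bases, from a stranded kit, per the labels' protocols. Low FPKM values showed no steps of whole reads, so depth was not recovered. The 6 libraries were scaled by the median ratio over the 6925 genes that reached 1 in each of them. Differences in log2(scaled FPKM + 1) were tested by limma (3.58.1, R 4.3.3) using a variance trend and robust prior on these 6 libraries alone, with Benjamini-Hochberg adjustment over 10443 genes. MII and PN3 libraries were scaled to the same genes. Matplotlib 3.10.9 made the figures.

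The comparison and the 42 gene lists were chosen with earlier results of these data known, so counts over lists are descriptions beside the shares over all genes. Genes named are 24 preset genes, the 12 largest rises and 12 largest falls among called genes with groups apart, a mean of at least 10 in the higher group and an ordinary symbol, and in each list the 3 largest called changes in the commoner direction, the 2 largest in the other and called members at 0 in all libraries of a group; any other gene was chosen after its values were seen. Coordinates and promoters are from RefSeq (GRCm38.p6), in which 9894 of the tested symbols had an entry. Spreadsheet software had turned 12 symbols into dates, 9 of them among genes tested. Some genes that this rule selects are not reported here.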

Additional observations from a re-analysis of the deposited data

Results flagged for a closer look

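Rpl26, a ribosomal protein gene, had 12.6 in 1 WT PN3 library, against 2.32, 2.39 and 2.61 in the other 3, and was picked out because that library lay far from the rest. About 1 in 20 such groups of 4 is picked out by chance. Dux, Zscan4d, Zfp352, Obox1, Obox3, Klf5, Bcl2l10, Gdf9, Pabpc1l, Pabpc1 and Noc2l were checked in the same way and were not picked out. Across so many genes, a pick by chance is more likely than that rate.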

How the results depend on the processing

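In 16 alternatives no gene called here was called in the opposite direction. Leaving out single libraries gave 2469 to 3233 genes higher and 1092 to 2037 lower, with the lowest counts without L2C replicate 2. Requiring an FPKM of at least 1 in all 6 libraries left 6925 genes, with 1713 higher and 1643 lower. Fitting all 13 WT libraries gave 2710 lower. The causes of these changes in count were not tested. Whether the replicate numbers pair the samples is not stated. Deviations of same-numbered libraries correlated at 0.108, 0.0260 and 0.165, and those of differently numbered libraries at -0.170 to 0.114. With so few libraries these values cannot decide it. A replicate block gave 3275 higher and 1796 lower. TPM moved the median of all genes to 0.34, where 3057 were higher and 1645 lower.

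Of 42 lists, 38 had more calls in one direction than in the other, and 32 of these did not turn to the other direction in any alternative. The 2-cell multicopy list turned to mostly lower with library weights (17 higher, 19 lower), without L2C replicate 3 (13 higher, 21 lower) and without E2C replicate 2 as well (14 higher, 26 lower). Lists that were nearly even turned as follows: replication and cell cycle to 15 higher and 16 lower with a pseudocount of 0.1, 10 and 18 with at least 1 in all libraries, 23 and 25 with library weights, and 20 and 25 without both libraries. Glycolysis turned to 5 higher and 3 lower without L2C replicate 2, BAF to 5 and 4 without that library and 8 and 7 without L2C replicate 3, and with at least 1 in all libraries pluripotency turned to 2 and 3 and Hippo to 2 and 4. The cause was not tested. Counts of lower members on short lists moved most, as for Hippo (1 to 4 with single libraries left out), nuclear transport (1 to 5), heat shock (2 to 6), p53 (3 to 7) and trophectoderm and endoderm genes (0 to 5). Over all alternatives, 3411 results of single named genes stayed on the same side of the threshold, 93 lost a call, 14 gained one and 0 turned. Zscan4d and Zscan4f lost theirs in 4 alternatives each, Myc and Tbpl2 in 6 each, Rpl3 in 7 and Cdkn1a in 9.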

Other observations

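Genes of the respiratory chain and of the mitochondrial ribosome had been higher in the oocyte than in either 2-cell group. The 77 respiratory chain genes averaged (log2) 3.60, 3.34 and 3.16 in the L2C libraries and 2.67, 2.27 and 2.72 in the E2C libraries, beside 4.15 to 4.18 in the MII libraries. The 72 mitochondrial ribosomal protein genes averaged 3.40, 3.11 and 2.65 in the L2C libraries and 2.39, 1.91 and 2.49 in the E2C libraries, beside 3.59 to 3.63 in the MII libraries. Cytosolic ribosomal protein genes, by contrast, passed their MII level in all 3 L2C libraries. These are levels of chosen lists, with no test.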
